A study of Mus musculus with 16 samples.

Results

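Irf7, Isg15, Ifit1, Ifit3, Rsad2, Usp18, Oasl2, Oas1a, and Ifi44 are interferon-stimulated genes, and their mRNA was followed here in the skeletal muscle of 16 male C57BL/6J mice. These 9 genes were taken by name from the 23235 gene names of the mRNA table, and the counts of the 31 transcripts listed for them were summed per gene. All 9 passed the filter on low counts that left 15364 genes for testing, and all 9 are annotated as protein-coding. The mice formed 4 groups of 4. The control group ate a normal diet. The HFD group ate a high-fat diet with 60% fat for 8 weeks, all mice having been bought at 6 weeks of age. The HFD + RSV and HFD + MET groups ate the same diet for 8 weeks and were then given resveratrol (RSV), a plant polyphenol, or metformin (MET), a drug used for diabetes, for 6 weeks. The strain is an inbred wild type in all 4 groups. The labels give no dose and do not say which muscle was taken, how long the HFD mice stayed on the diet after week 8, or whether mice of a group shared a cage.

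Interferons are cytokines that cells release when they sense foreign nucleic acid. Type I interferon binds the receptor made of IFNAR1 and IFNAR2, the kinases JAK1 and TYK2 phosphorylate transcription factors of the STAT family, among them STAT2, and these join IRF9 to form a complex that binds the interferon-stimulated response element in promoters. The genes turned on in this way encode antiviral enzymes, RNA-binding proteins, and regulators that amplify or end the response. Most tissues read interferon-stimulated genes at a low level in the absence of infection.

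Promoter stretches are shown because the response element is the sequence these 9 genes are known for. They were added after the 9 genes were seen to point in one direction in several comparisons. The genes were taken by name as interferon-stimulated genes, so their share of matches is not independent of that choice. A link between the matches and the levels was not tested. RefSeq promoter sequences of build GRCm38.p6 were matched for 8 of the 9 genes, all but Usp18. The letters GAAANNGAAA, the core of the element, were searched on both strands in the 250 bases before the RefSeq start site. They were found in 5 of the 8 promoters and in 2.98% of all 32851 promoter windows. Of the tested genes with a promoter window, 3.24% had a match. The stretches below run 5′ to 3′ along each gene, with the matches in capitals and up to 20 bases on each side. Matches on the opposite strand read TTTCNNTTTC.
Isg15, chr4:156200855-156200916, minus strand: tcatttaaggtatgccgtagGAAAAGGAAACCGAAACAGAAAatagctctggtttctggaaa
Ifit1, chr19:34640765-34640833, plus strand: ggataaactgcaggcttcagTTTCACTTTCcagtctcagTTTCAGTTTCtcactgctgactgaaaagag
Ifit3, chr19:34583353-34583436, plus strand: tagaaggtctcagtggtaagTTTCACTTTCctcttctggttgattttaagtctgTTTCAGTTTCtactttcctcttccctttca
Rsad2, chr12:26456543-26456592, minus strand: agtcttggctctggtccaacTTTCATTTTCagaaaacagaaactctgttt
Oas1a, chr5:120907526-120907565, minus strand: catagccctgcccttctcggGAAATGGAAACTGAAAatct
The capitals of Isg15 hold 3 matches that overlap each other, from -78 to -57 counted from the start site. Ifit1 and Ifit3, both on chromosome 19, each had 2 separate matches on the opposite strand. The 2 matches of Oas1a overlap and end 5 bases before the start site. Rsad2 had a single match at -120 to -111. These letters are not in the windows of Irf7, Oasl2, and Ifi44, which says nothing more about those promoters. A match is a description of the letters and not a measured binding site.

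Each mouse gave 1 library with 17625909 to 29761026 mRNA counts. No pair of libraries was identical. The labels call the tissue skeletal muscle, while their extraction text names retinas. The 10 skeletal muscle markers summed to 173150 to 330530 CPM, the counts scaled to the library size, and the 6 retina markers found in the table summed to 0.692 to 2.17 CPM, which is near 0. Mouse 3 of the HFD + MET group stood apart within its group, with a library scaling factor of 1.19. It had the lowest muscle marker sum of its group (184610 CPM) and the highest adipocyte and erythroid marker sums. Control mouse 3 had the same traits within the control group, with a scaling factor of 1.17 and a muscle marker sum of 173150 CPM. Its adipocyte and erythroid sums were 3408 and 883 CPM. Beside the results that involve the HFD + MET group, values are also given without mouse 3 of that group. These are the medians of the 9 genes and of the lists, and their counts at an unadjusted P below 0.05. Marker medians without control mouse 3 are not given. The mouse titles begin with a number, which was 7 for all HFD mice and for no other mouse, so whatever this number stands for cannot be told apart from the HFD group.

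The 9 genes were expressed at low levels. On the FPKM scale, which divides by transcript length and so allows levels to be compared between genes, the mean over 16 mice was highest for Ifit3 (2.5), Oasl2 (2.35), and Rsad2 (2.21). Usp18 (1.99) and Irf7 (1.98) came next, ahead of Ifit1 (1.15) and Isg15 (1.11). Oas1a (0.51) and Ifi44 (0.478) were the lowest. In the HFD group, the FPKM was 1.87 ± 0.294 for Ifit3, 1.71 ± 0.584 for Usp18, 1.54 ± 0.304 for Rsad2, and 1.5 ± 0.138 for Oasl2 (mean ± SD, n = 4), and neighbours in this order differed by less than their spread. In the HFD + MET group, Ifit3 (4.08 ± 3.08), Oasl2 (3.63 ± 1.15), Rsad2 (3.04 ± 2.07), and Irf7 (3 ± 1.18) led, again with overlapping spreads. Between 12.2% and 36.5% of the tested genes had a lower mean FPKM than a given member, so all 9 were in the lower part of the range. Isg15 had 8 to 49 counts per mouse and Oas1a 12 to 45, while Rsad2 had 115 to 526. The SE of the log2FC was largest for Isg15, from 0.359 to 0.376 over the comparisons.

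The values that follow are CPM after TMM scaling, a correction for library composition, with mice 1 to 4 of each group in order. Irf7 is the transcription factor that amplifies type I interferon production. It lies at chr7:141262706-141266481 on the minus strand (GRCm38). Its CPM was 3.15, 3.83, 4.73, and 2.96 in the control mice and 2.29, 1.75, 1.99, and 2.53 in the HFD mice, and these ranges did not overlap. It was 3.58, 2.64, 1.91, and 2.46 in the HFD + RSV mice and 4.89, 3.45, 6.42, and 3.27 in the HFD + MET group. All 4 mice given metformin were above all 4 HFD mice, whereas the HFD + RSV range overlapped the ranges of the other 3 groups.

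Isg15 encodes a ubiquitin-like protein that is attached to other proteins, and Usp18 encodes the protease that removes it and restrains signaling at the type I receptor. Isg15 lies at chr4:156199424-156200818 on the minus strand, and Usp18 at chr6:121245906-121270917 on the plus strand. The CPM of Isg15 was 0.995, 0.624, 0.796, and 0.505 in the HFD mice and 0.935, 1.65, 2.07, and 1.15 in the HFD + MET group, with 0.505 to 1.22 in the control mice and 0.358 to 1.04 in the HFD + RSV mice. The lowest mouse given metformin was within the HFD range. The CPM of Usp18 was 3.25, 2.37, 2.39, and 4.32 in the HFD mice and 4.24, 3.63, 5.58, and 3.95 in the HFD + MET group, with 1.92 to 4.04 in the control mice and 2.64 to 3.3 in the HFD + RSV mice. A single HFD mouse reached 4.32 CPM of Usp18, above 3 of the 4 mice given metformin.

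Ifit1 and Ifit3 encode related proteins, and that of Ifit1 binds foreign RNA. Ifit1 lies at chr19:34640871-34650009 on the plus strand, and Ifit3 at chr19:34583531-34588731 on the plus strand. The CPM of Ifit1 was 2.86, 4.09, 2.85, and 2.81 in the control mice and 2.38, 2.29, 2.61, and 2.53 in the HFD mice. It was 2.95, 2.77, 2.48, and 2.19 in the HFD + RSV mice and 3.9, 5.32, 8.2, and 4.92 in the HFD + MET group. The HFD mice lay within a narrow range below all control mice, and all mice given metformin lay above all mice of the HFD and HFD + RSV groups. The CPM of Ifit3 was 3.5, 3.95, 3.85, and 4.5 in the HFD mice and 4.4, 5.17, 15, and 6.18 in the HFD + MET group, with 2.96 to 5.34 in the control mice and 3.13 to 4.35 in the HFD + RSV mice. Mouse 3 of the HFD + MET group had 354 counts of Ifit3, while the other 3 mice of the group had 80 to 172.

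Oas1a encodes an oligoadenylate synthetase, an enzyme that senses double-stranded RNA and signals to RNase L, and Oasl2 encodes a relative with ubiquitin-like domains. Oas1a lies at chr5:120896256-120907521 on the minus strand, and Oasl2 on the same chromosome at chr5:114896936-114912234 on the plus strand. The CPM of Oasl2 was 5.34, 4.83, 4.46, and 4 in the control mice and 3.07, 3.7, 3.32, and 3.81 in the HFD mice. It was 4.11, 4.34, 5.32, and 4.29 in the HFD + RSV mice and 6.49, 7, 8.83, and 6.5 in the HFD + MET group. The HFD group was below every other group without overlap, and the HFD + MET group was above every other group without overlap. The CPM of Oas1a was 0.519, 0.665, 0.84, and 0.965 in the HFD mice, 1.43, 1.3, 1.33, and 0.581 in the HFD + RSV mice, and 1.38, 1.16, 1.65, and 1.62 in the HFD + MET group, with 0.73 to 1.25 in the control mice. Mouse 4 of the HFD + RSV group was as low as the HFD mice, and the other 3 were above them.

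Rsad2 encodes viperin, an enzyme that makes an antiviral nucleotide, and Ifi44 is an interferon-induced gene. Rsad2 lies at chr12:26442746-26456452 on the minus strand, and Ifi44 at chr3:151730922-151749960 on the minus strand. The CPM of Rsad2 was 6.45, 9.11, 7.25, and 5.28 in the HFD mice and 7.2, 10.3, 22.2, and 8.62 in the HFD + MET group, with 8.59 to 10.9 in the control mice and 6.48 to 9.34 in the HFD + RSV mice. Mouse 3 of the HFD + MET group was above all mice of the other groups, and the other 3 were within the range of the control mice or below it. The CPM of Ifi44 was 0.899, 1.87, 1.06, and 0.988 in the control mice and 1.21, 0.956, 1.19, and 0.735 in the HFD mice. It was 2.01, 2.3, 1.42, and 1.56 in the HFD + RSV mice and 2.25, 2.7, 1.99, and 1.94 in the HFD + MET group. Both treated groups were above the HFD group without overlap.

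**Figure D1:**
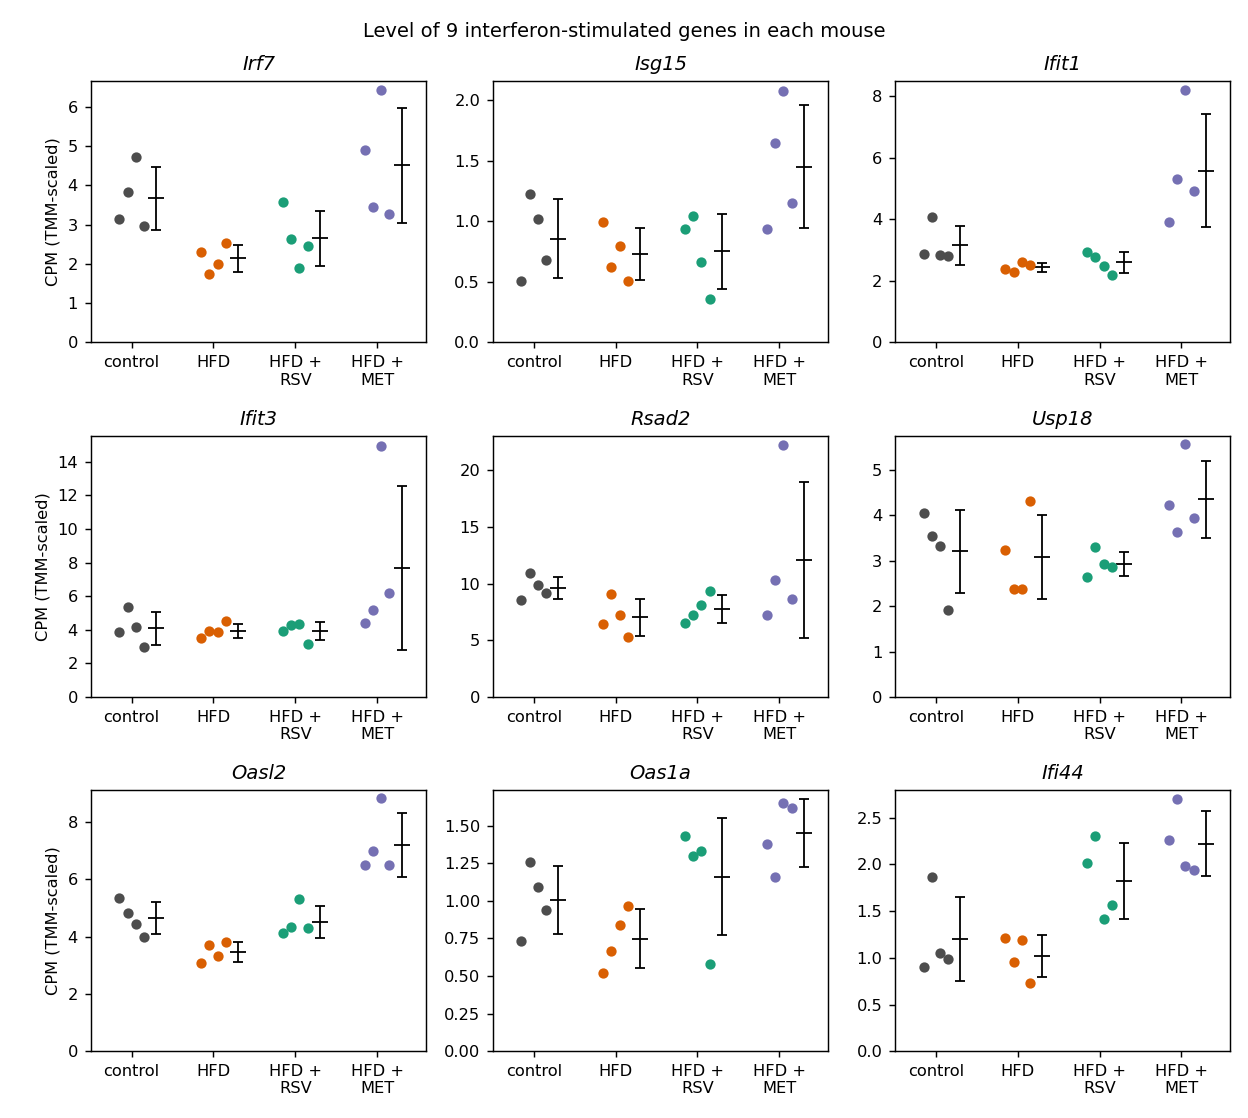
CPM (TMM-scaled) of the 9 genes in each mouse, with 1 point per mouse in 4 groups and the mean ± SD beside them. For Oasl2, the HFD + MET mice sit between 6.49 and 8.83 CPM and all other mice at or below 5.34 CPM, while for Rsad2 and Ifit3 a single HFD + MET mouse lies far above the rest.

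The comparison of the HFD + MET group with the HFD group asks how metformin treatment altered these transcripts in the muscle of mice on the high-fat diet. All 9 genes had a log2FC above 0 for HFD + MET versus HFD, with values from 0.50 to 1.19 and a median of 0.99, against a median of 0.02 over all genes tested, of which 53.1% were above 0. The log2FC, its SE, and P came from the quasi-likelihood test of edgeR on all 16 mice, with adjustment over the 15364 genes by Benjamini-Hochberg. Oasl2 rose (log2FC 1.05, SE 0.137, adjusted P = 0.0133), a 2.07-fold difference, and it was the only member past an adjusted P of 0.05. In this comparison, 2 of the 15364 genes, or 0.013%, passed that threshold, and Oasl2 had the smallest P of all. DESeq2, another count model, called Irf7, Ifit1, and Oasl2 (adjusted P = 0.0306, 5.67e-04, and 1.17e-07), and 0.202% of all genes.

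Without adjustment, all 9 genes had a P below 0.05 with a higher level, while 5.23% of all tested genes did. By the criteria of the study, an unadjusted P below 0.05 and an absolute log2FC above 1, Irf7 (1.07, SE 0.247, adjusted P = 0.398), Ifit1 (1.19, SE 0.205, adjusted P = 0.141), Oasl2, and Ifi44 (1.11, SE 0.256, adjusted P = 0.398) were called higher, and 1.35% of all genes were. The groups did not overlap for these 4 genes and for Oas1a (0.95, SE 0.284, adjusted P = 0.593), and 1.83% of all genes were higher in the HFD + MET group without overlap. The log2FC was 0.99, SE 0.364, adjusted P = 0.608 for Isg15, 0.96, SE 0.314, adjusted P = 0.6 for Ifit3, 0.78, SE 0.285, adjusted P = 0.608 for Rsad2, and 0.50, SE 0.233, adjusted P = 0.618 for Usp18. Usp18 had the smallest difference of the 9 and an unadjusted P of 0.0498. These 4 genes overlapped between the groups.

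**Figure D2:**
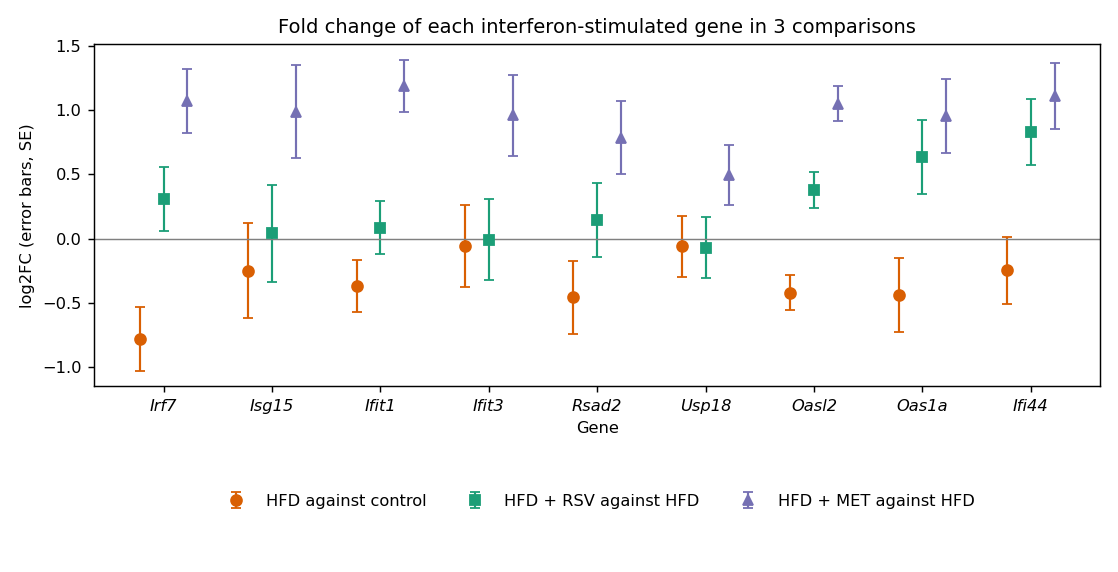
log2FC of the 9 genes in 3 comparisons, with error bars of 1 SE from the edgeR fit to 16 mice. All points lie between 0.50 and 1.19 for HFD + MET versus HFD, between -0.78 and -0.06 for HFD versus control, and between -0.07 and 0.83 for HFD + RSV versus HFD.

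Mouse 3 of the HFD + MET group was the highest of all 16 mice for 8 of the 9 genes. Its summed CPM of the 9 genes was 71.9, and the sums of the 4 mice were 35.7, 40.4, 71.9, and 38.2. The sums were 23.7, 25.4, 24.2, and 25.2 in the HFD mice, so the other 3 mice given metformin were also above every HFD mouse. Without mouse 3, all 9 genes still had a log2FC above 0, with a median log2FC of 0.85. Of these, 6 had an unadjusted P below 0.05, against 2.12% of the 15565 genes tested, and none of the 15565 passed an adjusted P of 0.05 (0.0%). The log2FC without this mouse was 0.94 (SE 0.13) for Oasl2 with an adjusted P of 0.0691, 0.95 (SE 0.168) for Ifit1, 1.16 (SE 0.277) for Ifi44, and 0.85 (SE 0.234) for Irf7. It was 0.41 (SE 0.189) for Ifit3 and 0.32 (SE 0.179) for Rsad2, against 0.96 and 0.78 with all mice.

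The call of Oasl2 was close to the threshold. Over 14 alternatives its log2FC lay between 0.40 and 1.19, and its adjusted P between 1.17e-07 and 0.933. The adjusted P was below 0.05 in 6 of them, and leaving out any of 5 single mice ended the call. The lowest log2FC came from the most abundant Oasl2 transcript alone, a coding transcript of 3123 bases with 45.4% of the counts of the gene (log2FC 0.40, SE 0.391). An Oasl2 transcript annotated as a retained intron, with 14.5% of the counts, had a log2FC of 1.56 (SE 0.32, adjusted P = 0.741). Counts of overlapping transcripts are divided among them by estimation, and the difference between these transcripts was not tested.

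Markers of some other cells had higher values in the same comparison, and those of others did not. Fibroblast and skeletal muscle markers both had a median log2FC of -0.19, with 6 of 7 and 8 of 10 below 0, and of -0.03 without mouse 3 of the HFD + MET group. The erythroid markers, which include 4 hemoglobin genes and Alas2, had an unadjusted P below 0.05 and a higher level in the HFD + MET group for 6 of 6 genes (median log2FC 1.10). Their summed CPM was 363 to 478 in the HFD mice, 501 to 1397 in the HFD + MET group, 509 to 1347 in the HFD + RSV mice, and 358 to 883 in the control mice. The sum was thus above the HFD range in both treated groups. Without mouse 3, 2 of the 6 erythroid genes had an unadjusted P below 0.05 (median log2FC 0.75). Adipocyte markers had a log2FC above 0 for 7 of 7 genes (median log2FC 1.72), with no unadjusted P below 0.05, and their sums in the 4 mice were 1193, 195, 3334, and 325 CPM, against 189 to 812 in the HFD mice. Without mouse 3, the adipocyte median was 0.57, with 6 of 7 above 0. Endothelial markers had a log2FC above 0 for 8 of 8 genes (median 0.26), 3 with an unadjusted P below 0.05, and the sums were 391 to 550.4 CPM against 382 to 445 CPM. Without mouse 3, 1 of the 8 had an unadjusted P below 0.05 (median 0.15).

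Macrophage markers had a log2FC above 0 for 10 of 10 genes, with a median log2FC of 0.14 with or without mouse 3 and no unadjusted P below 0.05, and the HFD range of their sums (148 to 304 CPM) lay inside the HFD + MET range (121 to 398 CPM). The 10 T and NK cell markers were near 0, with sums of 0.416 to 0.779 CPM in the HFD mice and 0.503 to 1.94 CPM in the HFD + MET group, and none passed the filter on low counts. Of 7 markers listed for plasmacytoid dendritic cells, which are strong producers of type I interferon, Cd300c, Klk1, and Ly6d had no count in 14, 13, and 11 of the 16 mice, and Siglech had 6 to 47 counts. Cox6a2, with 2213 counts or more, is also a gene of muscle itself. In mice 1 to 4 of the HFD + MET group, the erythroid sums were 933, 571, 1397, and 501 CPM, against at most 478 CPM in the HFD mice. The endothelial sums of these 4 mice were 391, 549, 550.4, and 393 CPM, against at most 445 CPM in the HFD mice. The part of other cells in the differences was not tested. In whole muscle, a change in the number of cells of a type and a change in RNA per cell cannot be told apart.

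**Figure D3:**
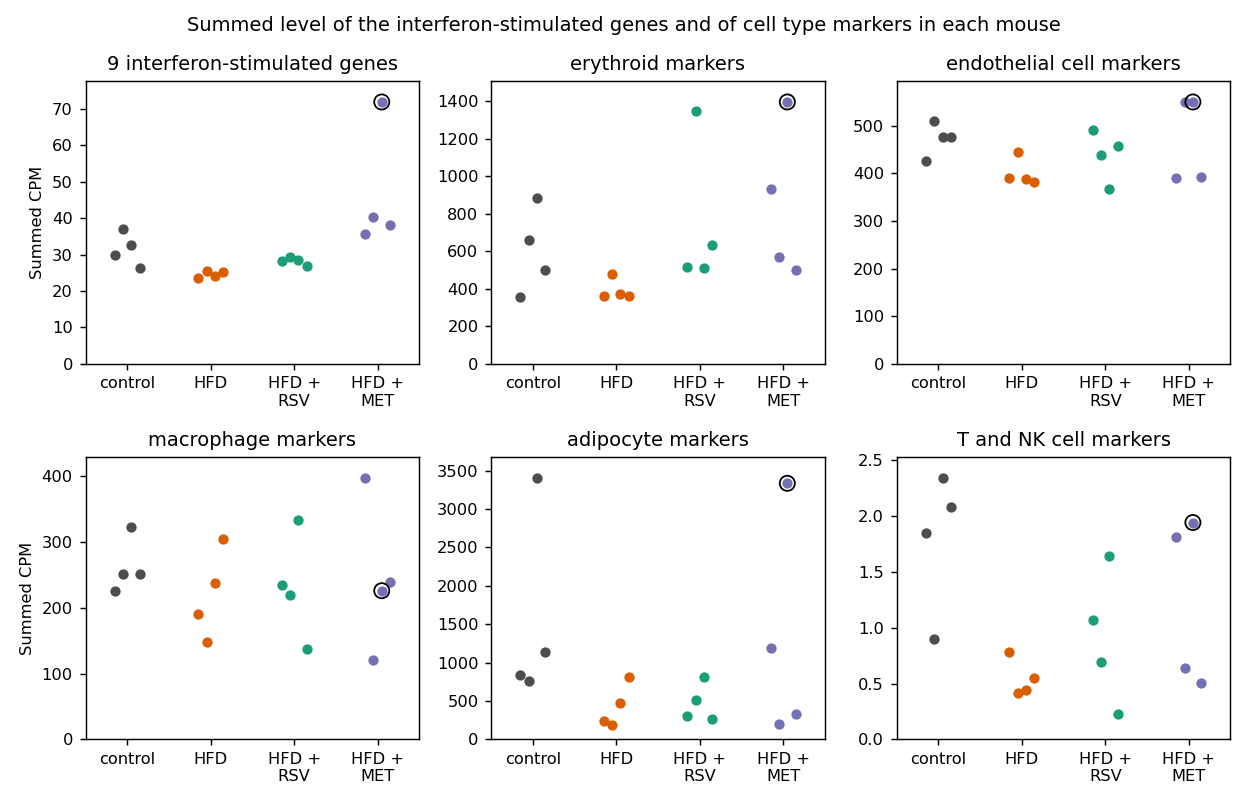
Summed CPM of the 9 interferon-stimulated genes and of 5 marker lists in each mouse, with mouse 3 of the HFD + MET group circled. The 9 genes sum to 35.7 CPM or more in all 4 HFD + MET mice and to 25.4 CPM or less in all 4 HFD mice. The erythroid sums of these groups do not overlap either, while the endothelial, macrophage, adipocyte, and T and NK cell sums do.

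The comparison of the HFD group with the control group asks what the diet altered, and it shares the 4 HFD mice with the preceding one. All 9 genes had a log2FC below 0, with a median of -0.37 against -0.02 over all genes tested, and 52.4% of all genes were below 0. None of the 9 passed an adjusted P of 0.05 in edgeR, while 2.43% of all genes did. Irf7 had the largest difference (-0.78, SE 0.247, adjusted P = 0.0858), followed by Rsad2 (-0.46, SE 0.285, adjusted P = 0.34), Oas1a (-0.44, SE 0.288, adjusted P = 0.365), and Oasl2 (-0.42, SE 0.137, adjusted P = 0.0931). Irf7 and Oasl2 had an unadjusted P below 0.05 (0.00653 and 0.00795), and 12.5% of all genes were lower at that threshold. Irf7, Ifit1, and Oasl2 were lower in all HFD mice than in all control mice, as were 9.44% of all genes. For Isg15 (-0.25, SE 0.371), Ifi44 (-0.25, SE 0.26), Ifit3 (-0.06, SE 0.316), and Usp18 (-0.06, SE 0.235), the difference was smaller than its SE. Irf7 alone of the 9 passed an adjusted P of 0.05 with DESeq2 (0.0411), where 10% of all genes (1544) did, with the 2 groups fitted alone (0.04997), where 6.74% did, and with the 12 mice not given metformin (0.0412), where 10.7% did. In the fit without mouse 3 of the HFD + MET group, where 10.2% of all genes were called, Irf7 and Oasl2 passed (adjusted P = 0.0384 and 0.0434).

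Cell type markers moved in both directions in this comparison. The T and NK cell marker sum was 0.901 to 2.35 CPM in the control mice and 0.416 to 0.779 CPM in the HFD mice. None of these markers passed the filter on low counts. Endothelial markers had a median log2FC of -0.30 with 4 of 8 lower at an unadjusted P below 0.05. Adipocyte markers had a median of -1.88 with 2 of 7 lower at that threshold, 6 below 0, and 1 above 0. Macrophage markers had a median of -0.21 with 9 of 10 below 0 and 1 lower at that threshold. Schwann cell markers, genes of nerve sheaths, had a median of -1.14 with 6 of 6 below 0 and 3 lower at that threshold, and erythroid markers had a median of -0.61 with 6 of 6 below 0 and none past it. Skeletal muscle markers had a median of 0.29 with 3 of 10 higher at an unadjusted P below 0.05. The B cell marker sum was 18.6 to 42.0 CPM in the control mice and 40.7 to 59.3 CPM in the HFD mice. It was mostly Ighm, with 339 to 2150 counts per mouse, against at most 23 for any other B cell marker. Ighm had a log2FC of 0.74 and Igkc of -0.87, the only 2 tested, neither with an unadjusted P below 0.05. In control mice 1 to 4, the adipocyte sums were 841, 761, 3408, and 1134 CPM. The erythroid sums of these mice were 358, 658, 883, and 502 CPM. Control mouse 3 was thus the highest of its group for both, and it had the lowest muscle marker sum of its group (173150 CPM). The marker medians of this comparison are not given without control mouse 3. The part of these cell types in the result was not tested.

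The comparison of the HFD + RSV and HFD groups asks what resveratrol altered in mice on the diet. Its 4 HFD mice are those of the preceding comparisons. None of the 9 genes passed an adjusted P of 0.05 in edgeR, and neither did any other gene (0.0%). An unadjusted P below 0.05 was found for 725 of the 15364 genes, 2.82% higher and 1.89% lower. DESeq2 called none of the 9 genes either (0.0521% of all genes). Ifi44 (0.83, SE 0.258, adjusted P = 0.999), Oas1a (0.63, SE 0.287, adjusted P = 0.999), and Oasl2 (0.38, SE 0.137, adjusted P = 0.999) had a higher level at an unadjusted P below 0.05, as did 2.82% of all genes. Ifi44 and Oasl2 were higher in all 4 mice given resveratrol than in all HFD mice, and 1.88% of all genes were. The other 6 genes had a log2FC from -0.07 (Usp18) to 0.31 (Irf7), each with an unadjusted P above 0.2. The median of the 9 genes was 0.15. The erythroid markers had a median log2FC of 0.91, with 5 of 6 at an unadjusted P below 0.05. Schwann cell markers had a median of 1.23, also with 5 of 6, and summed to 36.6 to 54.9 CPM in the HFD mice and 36.3 to 336 CPM in the HFD + RSV mice. The part of these cells in the result was not tested.

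The treated groups were also compared directly. All 9 genes had a log2FC below 0 for resveratrol versus metformin, from -1.10 to -0.28 and a median of -0.67, and 50.7% of all genes were below 0. None passed an adjusted P of 0.05 in edgeR, and no tested gene did (0.0%). An unadjusted P below 0.05 was found for 719 of the 15364 genes. DESeq2 called Ifit1 and Oasl2 (adjusted P = 0.00635 and 0.0230), and 0.0651% of all genes. At an unadjusted P below 0.05, 7 of the 9 were lower, against 3.01% of all genes. Ifit1 (-1.10, SE 0.204, adjusted P = 0.495) and Oasl2 (-0.67, SE 0.135, adjusted P = 0.518) were 2 and 5 in the order of all genes by P. Ifit1, Ifit3, Usp18, and Oasl2 did not overlap between the groups, and 0.957% of all genes were lower without overlap. Oas1a (-0.32, SE 0.277, adjusted P = 0.962) and Ifi44 (-0.28, SE 0.248, adjusted P = 0.962), the genes with the smallest differences, had an unadjusted P of 0.266 and 0.274. Without mouse 3 of the HFD + MET group, the median log2FC was -0.42 and 4 of the 9 had an unadjusted P below 0.05, against 1.21% of all genes. Adipocyte markers had a median of -1.41 in this comparison, with 7 of 7 below 0 (-0.38 and 6 of 7 without mouse 3), and Schwann cell markers had a median of 0.90, with 6 of 6 above 0 and 2 at an unadjusted P below 0.05 (median 0.99 and 2 without mouse 3). Their part in the result was not tested.

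Against the control mice, the HFD + MET mice had a log2FC above 0 for all 9 genes (median log2FC 0.63), as were 51.8% of all genes. None passed an adjusted P of 0.05 in edgeR, nor did any other gene (0.0%). An unadjusted P below 0.05 was found for 1459 of the 15364 genes. DESeq2 called Ifit1 and Oasl2 here too (adjusted P = 0.0383 and 0.0110), and 0.918% of all genes. Ifit1 (0.82, SE 0.202, adjusted P = 0.216), Ifit3 (0.90, SE 0.313, adjusted P = 0.365), Oasl2 (0.63, SE 0.135, adjusted P = 0.191), and Ifi44 (0.86, SE 0.253, adjusted P = 0.274) were higher at an unadjusted P below 0.05, against 5.34% of all genes. Oasl2 and Ifi44 did not overlap between these groups (1.96% of all genes). For Irf7, the log2FC was 0.29, SE 0.241, adjusted P = 0.746, and the groups overlapped. Without mouse 3 of the HFD + MET group, the median was 0.45 with 8 of the 9 above 0, 3 had an unadjusted P below 0.05 (9.55% of genes higher), none passed the adjusted P (1.16% of genes did), and the log2FC of Rsad2 changed sign from 0.33 to -0.14 (SE 0.179). Against the control mice, erythroid markers of the HFD + MET group had a median of 0.48 (0.11 without mouse 3) and Schwann cell markers of -0.65 (-0.75 without it), and their part in the result was not tested. Between the HFD + RSV and control groups, none of the 9 passed an adjusted P of 0.05 (0.00651% of all genes did), and DESeq2 called none of the 9 (2.34% of all genes). The median was -0.13, and Ifi44 (0.58, SE 0.254, adjusted P = 0.288) was the single member with an unadjusted P below 0.05, where 7.8% of all genes were higher.

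A test of any difference among the 4 groups called Oasl2 (adjusted P = 0.0183) and no other of the 9 genes, and 0.117% of all genes. Ifit1 followed with an adjusted P of 0.0553, Ifi44 with 0.14, and Irf7 with 0.147. At an unadjusted P below 0.05, 7 of the 9 passed, all but Rsad2 and Usp18, against 15.4% of all genes. DESeq2 called 4 of the 9 in this test and 5.03% of all genes. Without mouse 3 of the HFD + MET group, 4 of the 9 had an unadjusted P below 0.05 in edgeR. The share of all genes at that threshold is not given for that fit. At an adjusted P below 0.05, it called 2 of the 9 and 474 of the 15565 genes tested.

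Other genes of the pathway were grouped into lists by role. The interferon genes searched for by name had no row in the mRNA table, so they were not analysed here. The receptor chains Ifnar1 and Ifnar2, Ifngr1 and Ifngr2 for interferon gamma, and Il10rb had no adjusted P below 0.05 in any comparison. For metformin (HFD + MET versus HFD), the log2FC was 0.23 (SE 0.136, adjusted P = 0.66) for Ifnar1 and 0.49 (SE 0.314, adjusted P = 0.681) for Ifnar2. The 11 genes of the JAK-STAT core had a median log2FC of 0.15 (0.07 without mouse 3 of the HFD + MET group), with Stat2 at 0.28 (SE 0.198, adjusted P = 0.698) and Irf9 at 0.28 (SE 0.16, adjusted P = 0.652), whose products are parts of the complex that binds the response element.

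Of 14 sensors of foreign nucleic acid and their adaptors, 14 were above 0 and 4 had an unadjusted P below 0.05 in this comparison (median 0.25). They were Ddx58, which encodes the RNA sensor RIG-I (log2FC 0.73, SE 0.181, adjusted P = 0.468), Ifih1, which encodes MDA5 (log2FC 0.59, SE 0.178, adjusted P = 0.593), Dhx58 (log2FC 0.86, SE 0.386, adjusted P = 0.618), and Zbp1 (log2FC 1.17, SE 0.526, adjusted P = 0.618). Without mouse 3 of the HFD + MET group, 12 of the 14 were above 0 and 2 had an unadjusted P below 0.05 (median 0.18). Of 4 genes that attach ISG15 to its targets, the ligase gene Herc6 (log2FC 0.60, SE 0.189, adjusted P = 0.6) and the activating enzyme gene Uba7 (log2FC 0.48, SE 0.181, adjusted P = 0.611) had an unadjusted P below 0.05, and the median of the 4 was 0.50. Without mouse 3, 1 of the 4 did and the median was 0.19.

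Among 46 tested genes of a list of other type I interferon targets, 26 were higher at an unadjusted P below 0.05 in the HFD + MET mice than in the HFD mice, none was lower, and none passed an adjusted P of 0.05. The background for this comparison is the 5.23% given above. The median log2FC was 0.48, and 15 of the 46 were higher without overlap, against 1.83% of all genes. Examples were Sp100 (log2FC 0.56, SE 0.0968, adjusted P = 0.141), a nuclear body gene, the GTPase gene Mx2 (log2FC 0.94, SE 0.214, adjusted P = 0.398), Bst2, which encodes tetherin (log2FC 0.56, SE 0.154, adjusted P = 0.545), and Rtp4 (log2FC 1.05, SE 0.275, adjusted P = 0.511). Of 20 interferon gamma targets, 13 were higher at an unadjusted P below 0.05 and none was lower (median 0.68), among them the guanylate-binding protein genes Gbp9 (log2FC 0.61, SE 0.137, adjusted P = 0.398) and Gbp3 (log2FC 0.99, SE 0.293, adjusted P = 0.593) and the antigen transporter gene Tap1 (log2FC 0.83, SE 0.251, adjusted P = 0.593). Without mouse 3 of the HFD + MET group, 16 of 46 type I targets (median 0.32) and 7 of 20 interferon gamma targets (median 0.46) were higher at an unadjusted P below 0.05, against the 2.12% given above.

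For resveratrol (HFD + RSV versus HFD), 1 of the 46 type I targets was higher at an unadjusted P below 0.05 (median 0.03), and 0 of the 20 interferon gamma targets were higher and 1 was lower (median 0.23), where 1.89% of all genes were lower. For the diet (HFD versus control), 7 of the 46 were lower and none was higher (median -0.22), and 4 of the 20 were lower and 1 was higher (median -0.31), where 12.5% of all genes were lower and 11.7% higher. Between the treated groups, 21 of the 46 were lower with resveratrol (median -0.37), as were 5 of the 20 (median -0.36), against 3.01% of all genes. Without mouse 3 of the HFD + MET group, 12 of the 46 (median -0.24) and 1 of the 20 (median -0.16) were, against 1.21%. No gene of either list passed an adjusted P of 0.05 in these comparisons.

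**Figure D4:**
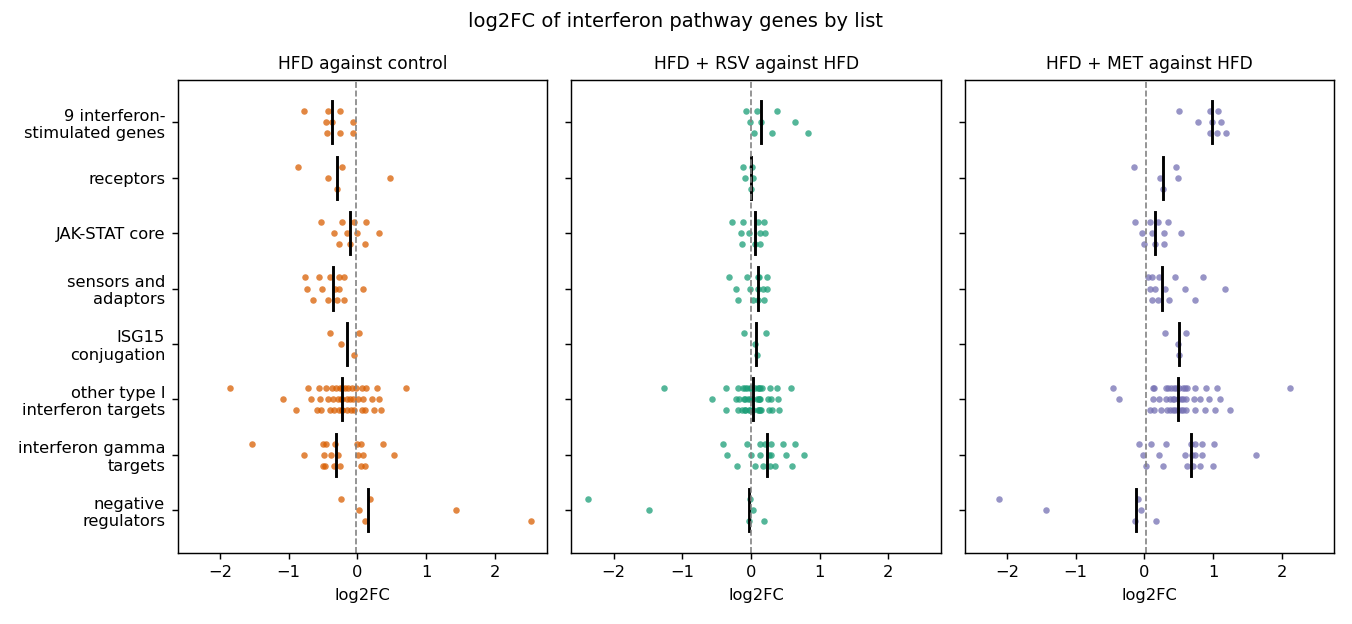
log2FC of each tested gene of 8 lists in 3 comparisons, with 1 point per gene, a black bar at the list median, and a dashed line at the median of all genes tested. For HFD + MET versus HFD the medians are 0.99 for the 9 genes, 0.48 for the other type I targets, and 0.68 for the interferon gamma targets.

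Of 6 negative regulators of the pathway, 1 was called. Socs1, which encodes an inhibitor of JAK kinases, rose in HFD versus control mice (log2FC 2.52, SE 0.519, adjusted P = 0.0336), and 2.43% of all genes passed that threshold in either direction. The call was lost without control mouse 2, 3, or 4 or HFD mouse 3 or 4 (adjusted P = 0.0631 to 0.107). Its CPM was 0.364 to 0.708 in the control mice and 1.3 to 6.57 in the HFD mice. The groups did not overlap. The log2FC of Socs1 was -2.11 (SE 0.505, adjusted P = 0.44) with metformin and -2.37 (SE 0.514, adjusted P = 0.999) with resveratrol, both versus the same HFD mice, and 2.79% and 1.89% of all genes were lower at an unadjusted P below 0.05 in these comparisons. Socs3, a related inhibitor, had a log2FC of 1.43 (SE 0.385, adjusted P = 0.0604) in HFD versus control mice. Its log2FC was -1.44 (SE 0.385, adjusted P = 0.533) in HFD + MET versus HFD mice and -1.48 (SE 0.386, adjusted P = 0.999) in HFD + RSV versus HFD mice. The other 4 genes of the list, Trim24, Usp25, Pias1, and Ptpn2, had log2FC from -0.24 to 0.19 in these comparisons.

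**Figure D5:**
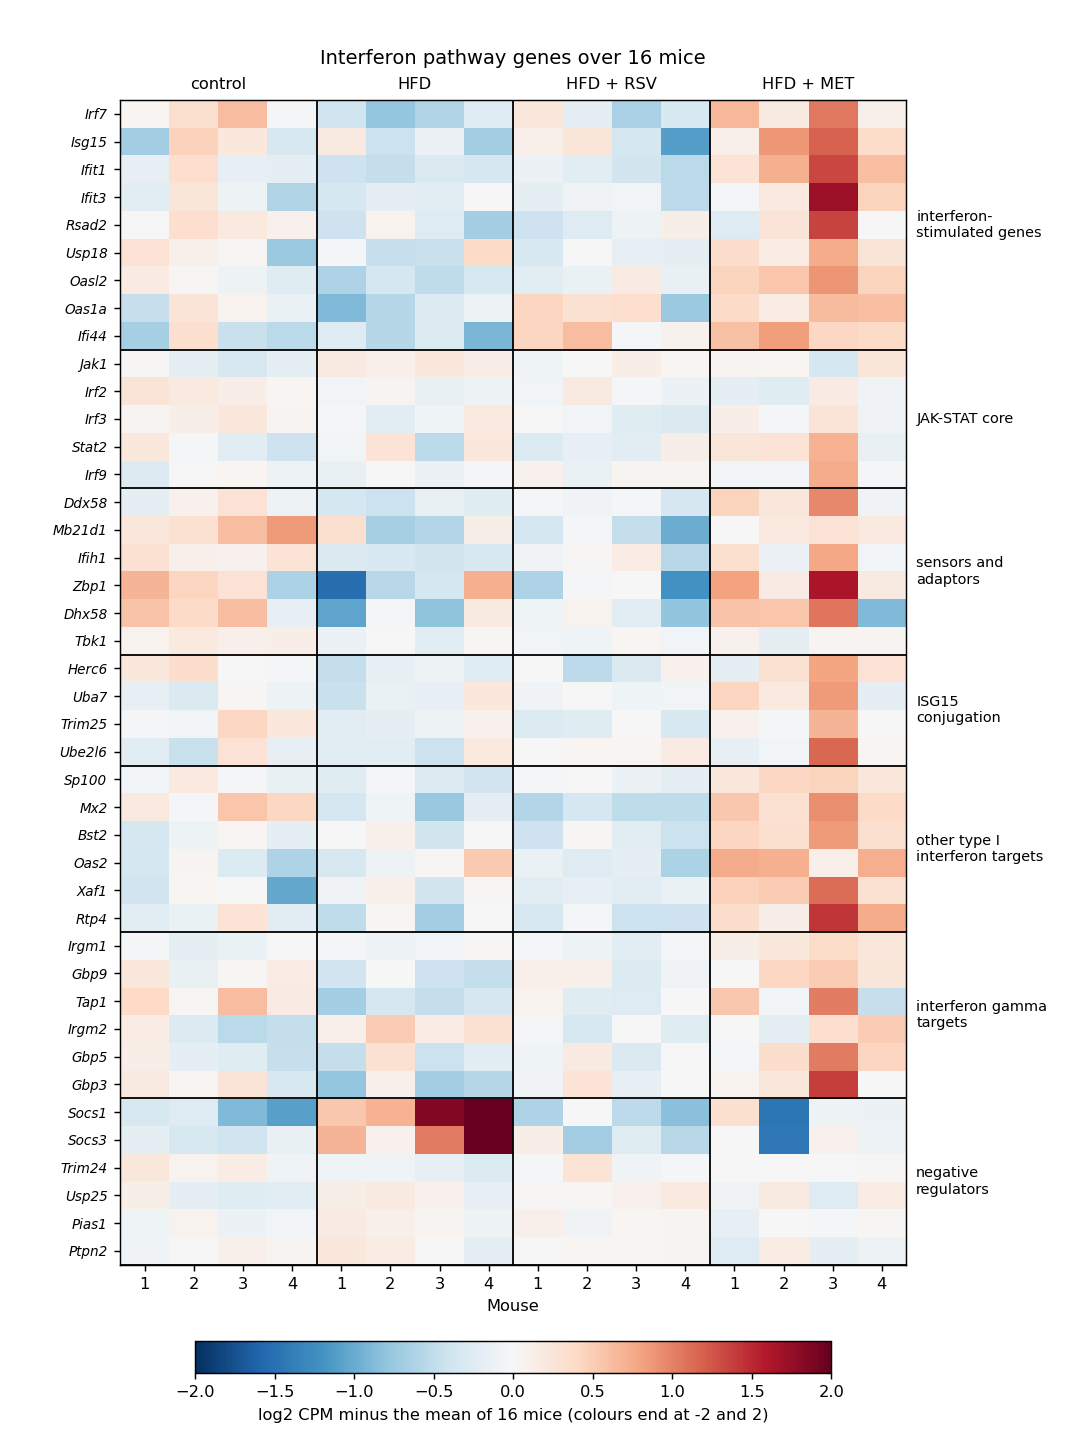
log2 CPM of the 9 genes and of up to 6 genes from each of 6 pathway lists (rows) in 16 mice (columns), as the difference from the mean of 16 mice, in colours that end at -2 and 2. Mouse 3 of the HFD + MET group is the highest for 8 of the 9 genes. Socs1 is higher in every HFD column than in any other column. Socs3 is highest in HFD mouse 4 (2.08), while in HFD mouse 2 (0.083) it is below HFD + RSV mouse 1 (0.13).

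The 9 genes varied together over the 16 mice. Pearson's r of log2 CPM was 0.29 to 0.87 over their 36 pairs (median 0.62), as a description that includes the differences between groups. Ifit1 was nearest to the mean of the other 8 (r = 0.95) and Ifi44 farthest (r = 0.59). Outside the 9, the genes most like their mean over 16 mice were Parp14 (r = 0.912), Sp100 (0.911), Ddx58 (0.895), Rnf213 (0.885), Phf11d (0.879), Cxxc4 (0.87), Trim34a (0.842), and Trim30a (0.835). Of these 8, 5 were in the list of other type I interferon targets and Ddx58 was in the list of sensors. All genes of a mouse come from 1 library and share its scaling, and mouse 3 of the HFD + MET group is far from the others in these values.

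Several members have near copies or overlap other genes, so their counts are uncertain where reads could be divided. Ifit3b, a near copy of Ifit3, rose in HFD versus control mice (log2FC 0.98, SE 0.238, adjusted P = 0.0474), while Ifit3 had a log2FC of -0.06. The call of Ifit3b was lost without any single mouse of these groups except control mouse 1 (adjusted P = 0.0658 to 0.136). It was also lost with library size alone (0.0684), with no filter on low counts (0.0613), and without HFD + MET mouse 1 or 2 or HFD + RSV mouse 1, 2, or 4 (0.0511 to 0.0589). In HFD + MET versus HFD mice its log2FC was 0.02 (SE 0.231, adjusted P = 0.984). The log2FC of Oas1g, a near copy of Oas1a, was 1.21 (SE 0.444, adjusted P = 0.608), and that of Oasl1, a relative of Oasl2, was 0.89 (SE 0.388, adjusted P = 0.618) in the latter comparison. Irf7 overlaps Phrf1 on the opposite strand, and 59.1% of its counts were in 6 transcripts annotated as retained introns, with 38.2% in 4 coding transcripts. Usp18 overlaps the noncoding gene Gm44148 on the opposite strand, whose transcript had 40 counts over the 16 mice. Whether counting used strand is not given in the sources used here. Isg15, Ifit1, Ifit3, and Oas1a had 1 coding transcript each, and coding transcripts held 97.1% of the counts of Rsad2 and 92.8% of those of Usp18.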

How the data were processed

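RNA of skeletal muscle from 16 mice, 1 library per mouse, was analysed in 4 groups of 4 taken from the treatment labels. The authors deposited 1 estimated count per transcript and mouse, made with StringTie, as whole numbers that were not normalized. The authors also deposited FPKM values beside them, which were used only to compare levels between genes. The submitters' processing notes name fastp, HISAT2, and GRCm38, and the coordinates of all 31 transcripts of the 9 genes equal those of GENCODE M21. The lncRNA table was used only to look for transcripts that overlap the 9 genes.

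Counts were summed per gene name. Genes were filtered with filterByExpr (minimum count 10, minimum total count 15), scaled by TMM, and tested with the quasi-likelihood model of edgeR 4.0.16 in R 4.3.3, fitted to 16 mice at once, and P was adjusted over all 15364 genes by Benjamini-Hochberg. Calls used an adjusted P below 0.05. The criteria of the study were a second rule. The common biological coefficient of variation was 0.261. Alternatives were DESeq2 1.42.0, RLE scaling, library size alone, no filter, only the groups compared, the 12 mice not given metformin, the most abundant transcript of each gene, and leaving out each mouse. The steps were tested on simulated counts. Where nothing says that mice were housed or processed separately, P measures only the spread between these samples. log2 CPM used a prior count of 2.

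The 9 genes and the pathway and marker lists were chosen with earlier results of these data known. All 9 genes are described. Some other genes are not reported here by name, though they remain in the counts and sums of their lists. Of each pathway list, up to 6 genes with the smallest P in the 4-group test could be named, and the 8 genes most correlated with the mean of the 9 over 16 mice. Single markers of plasmacytoid dendritic cells were named outside this rule, after their values were seen. Gene symbols were matched to RefSeq promoter windows for 8 of the 9 genes. Fibroblast, Schwann cell, B cell, and neutrophil markers were also summed.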

Additional observations from a re-analysis of the deposited data

Results flagged for a closer look

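Within the groups of 4, the gap between the most extreme mouse and its neighbour was compared with the range of the group (Dixon's criterion at the 95% level) for the log2 CPM of each of the 9 genes. Of 36 such groups, 2 passed, and chance alone gives about 1 in 20. The log2 CPM of Ifit1 was 2.06 in mouse 2 of the control group and 1.53 to 1.56 in the other 3 control mice. The log2 CPM of Oas1a was -0.58 in mouse 4 of the HFD + RSV group and 0.47 to 0.60 in the other 3 mice given resveratrol. Mouse 2 was the highest control mouse for 6 of the 9 genes, and mouse 4 was the lowest HFD + RSV mouse for 4 of the 9.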

How the results depend on the processing

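Over the 6 comparisons and their alternatives, with the mice of the groups compared left out in turn, 742 of the values of single genes kept their direction and their side of an adjusted P of 0.05, 9 passed it only under the alternative, 8 lost it, and 24 changed sign. In the 4-group test, the number of the 9 genes called was 4 with DESeq2, 0 with library size alone, and 0 to 2 when single mice were left out, against 1. For HFD versus control, it was 1 with DESeq2, with only the 2 groups, and with the 12 mice not given metformin, 0 without any single mouse of these groups, and 2 without mouse 3 of the HFD + MET group, against 0. For HFD + MET versus HFD, it was 3 with DESeq2, 0 with library size alone, 0 with only the 2 groups, 4 under the study's criteria, and 0 to 1 when single mice were left out, against 1. The call of Oasl2 was lost without mouse 1, 2, or 3 of the HFD group or mouse 2 or 3 of the HFD + MET group (adjusted P = 0.0616, 0.0522, 0.0932, 0.0942, and 0.0691). For HFD + MET versus control, DESeq2 called 2, against 0. For HFD + RSV versus HFD + MET, DESeq2 called 2, against 0. The study's criteria called 1, as lower. At the unadjusted P below 0.05 that is part of these criteria, 3.01% of all genes were lower. The share that also passed the log2FC criterion is not given.

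The most abundant transcript alone changed the sign of the log2FC of Oasl2 for HFD versus control (0.07) and HFD + RSV versus control (0.25), of Irf7 for HFD + MET versus control (-0.016), and of Ifi44 for HFD + RSV versus HFD + MET (0.0044). Ifit3 for HFD + RSV versus HFD was 0.053 with library size alone and 8.47e-04 with only the 2 groups. Leaving out single mice changed the sign in 10 cases, with these ranges of log2FC. For HFD versus control they were -0.18 to 0.10 for Ifit3, -0.27 to 0.064 for Usp18, and -0.36 to 0.060 for Ifi44. For HFD + RSV versus HFD they were -0.16 to 0.27 for Isg15, -0.062 to 0.085 for Ifit3, and -0.18 to 0.14 for Usp18. For HFD + RSV versus control they were -0.41 to 0.022 for Isg15, -0.19 to 0.094 for Ifit3, and -0.13 to 0.027 for Oasl2. For HFD + MET versus control it was -0.14 to 0.51 for Rsad2. The cause of these changes was not tested. Library size alone moved the median log2FC of all genes to -0.18 for HFD versus control, 0.14 for HFD + MET versus HFD, and -0.11 for HFD + RSV versus control.

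No paired analysis was possible because numbers in the titles do not number replicates across groups. With 8 to 49 counts per mouse for Isg15 and 12 to 45 for Oas1a, the count itself limits the precision of these genes.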

Other observations

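After the group means were subtracted, the pairs of the 9 genes had Pearson's r from -0.34 to 0.88 over the 16 mice (median 0.37). Ifit1 was nearest to the mean of the other 8 (r = 0.90) and Ifi44 farthest (r = 0.22). The 8 genes most like the mean of the 9 within groups included Hmgn5 (r = 0.936), Malt1 (0.926), Gm43275 (0.897), Col28a1 (0.873), Btg3 (0.870), Etfbkmt (0.858), and Magi1 (0.848). None of these 8 is in the pathway lists, whereas 6 of the 8 genes most like the mean over all 16 mice were. These values are descriptions over 16 mice, and mouse 3 of the HFD + MET group is the farthest point in them.

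The letters of the response element were found in the promoter windows of 10 of the 35 tested type I interferon targets with a window and of 9 of the 14 interferon gamma targets with a window, against 3.24% of all tested genes. These lists were made of interferon targets, so the shares are not independent of that choice.

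In HFD + MET versus HFD mice, the median log2FC was 0.36 for Schwann cell markers and -0.19 for fibroblast markers (0.24 and -0.03 without mouse 3 of the HFD + MET group), with no unadjusted P below 0.05 in edgeR. B cell and neutrophil markers had summed CPM of 26.0 to 85.2 and 3.03 to 11.6 in the HFD + MET mice and of 40.7 to 59.3 and 3.95 to 9.69 in the HFD mice.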
